A study of Mus musculus with 3 samples.

Results

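Integrins are cell surface receptors for the extracellular matrix, each made of 1 alpha and 1 beta chain, and 10 of the 31730 genes in the deposited matrix are described here. They were taken from the matrix by symbol: Itga8 and its ligand Npnt (nephronectin), the alpha chains Itga1, Itga4, Itga5, Itga9 and Itgav, and the beta chains Itgb1, Itgb3 and Itgb5. The study profiled mesenchymal cells of the mouse lung at postnatal day 7 by single-cell RNA sequencing. All pups carried Fgf18-CreERT2, a tamoxifen-inducible Cre recombinase driven from the Fgf18 locus, together with a tdTomato reporter at the ROSA locus that Cre switches on and an EGFP reporter at the Pdgfra locus, 1 copy of each, and had received tamoxifen between postnatal days 2 and 5. Live cells were sorted by the 2 reporters, so each group is defined by fluorescence and not by a treatment, and every group shares the same alleles and tamoxifen. The 3 gates were GFP-low tdT-negative (1284 cells), GFP-high tdT-negative (3347 cells) and GFP-high tdT-high (1511 cells), 6142 cells in all, each sequenced as 1 library.

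Nephronectin is a secreted matrix protein that binds the α8β1 integrin, the pairing of the Itga8 and Itgb1 products, through an Arg-Gly-Asp (RGD) sequence. The αv integrins and α5β1 also read RGD in fibronectin, vitronectin and related proteins, α4β1 and α9β1 bind other matrix and cell surface ligands such as tenascin-C and VCAM1, and α1β1 is a collagen and laminin receptor. In the lung, Itga8 and Npnt are widely used as markers of alveolar fibroblasts, while myofibroblasts form the contractile, elastin-depositing cells of the neonatal septum.

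Npnt is encoded on chr3:132881745-132950291 of GRCm38 on the minus strand. Its coding sequence, 1827 bases in the GENCODE transcript used, holds 1 in-frame run of RGD codons, which begins at coding base 1288 in exon 10 of 14 and lies at chr3:132904665-132904673. This run encodes the RGD sequence named above. It is printed here with its neighbouring codons, 5′ to 3′ on the coding strand and with the RGD codons in capitals.

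Npnt RGD codons: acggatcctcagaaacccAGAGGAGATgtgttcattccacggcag

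Itga8 lies on chr2:12106632-12301922, also on the minus strand. RefSeq start-site sequences of GRCm38.p6 were found for 9 of the 10 genes, all but Itgb3. The bases before the start of Itga8 and of Npnt are shown because the levels of both genes followed each other over most cell types. Capitals mark E-boxes (CANNTG) in the Itga8 sequence, from chr2:12301986-12302194, and GC boxes (GGGCGG, on either strand) in the Npnt sequence, from chr3:132950292-132950541, each printed 5′ to 3′ on the gene's strand.

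Itga8: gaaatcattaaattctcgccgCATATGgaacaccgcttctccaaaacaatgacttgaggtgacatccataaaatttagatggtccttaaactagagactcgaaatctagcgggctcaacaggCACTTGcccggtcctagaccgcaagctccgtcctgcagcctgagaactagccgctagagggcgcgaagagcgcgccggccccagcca
Npnt: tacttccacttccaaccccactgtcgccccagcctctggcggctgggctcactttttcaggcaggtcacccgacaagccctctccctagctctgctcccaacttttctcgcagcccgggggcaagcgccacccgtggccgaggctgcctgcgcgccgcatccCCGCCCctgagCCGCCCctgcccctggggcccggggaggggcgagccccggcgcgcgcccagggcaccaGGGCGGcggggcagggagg

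The sequences differ in composition, with 53.1% G and C over 209 bases for Itga8 and 74.0% over 250 bases for Npnt. An E-box occurs in 66.2% and a GC box in 32.7% of the 32851 RefSeq windows of the same kind. The Itga8 sequence holds no GC box and the Npnt sequence no E-box. RefSeq lists a second start site for Npnt, whose window (chr3:132949765-132950064) holds 2 E-boxes and no GC box. Neither holds a TATA box (TATAAA, 12.4% of windows), a CCAAT box (CCAAT, 33.8%), a TEAD motif (GGAATG, 12.6%), an AP-1 motif (TGANTCA, 6.75%) or a CArG box (1.47%), each searched on both strands. These matches describe letters in the windows and nothing more.

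UMIs (unique molecular identifiers, 1 per captured transcript) were summed over the cells of a type in a library and scaled to a common library total to give CPM (counts per 1000000 UMIs). In the order of gates given above, the libraries held 26586489, 68692834 and 34506226 UMIs, and their median cell 19798.5, 19629 and 22401 UMIs. Of the GFP-low tdT-negative cells 82.2% bore the deposited labels MatFB-Type 1, MatFB-Type 2 or MatFB-Im,Cuff, while MyoFB labels made up 79.4% of GFP-high tdT-negative and 96.5% of GFP-high tdT-high cells. AdvFB cells made up 11.5%, 9.80% and 0.265%, and DivFB cells 1.17%, 5.68% and 2.78%, in the same order. Alveolar, adventitial and myofibroblast markers were highest in the MatFB, AdvFB and MyoFB types, in that order. Cells under 1 name were not uniform, as given below for GFP-low AdvFB, for MatFB-Im,Cuff between gates and for MyoFB-Ter. The summed level of 8 alveolar fibroblast markers was 14681 and 15504 CPM in MatFB-Type 1 and Type 2, and 76.3 to 736 CPM in the MyoFB types, whose 8 myofibroblast markers reached 15061 to 17648 CPM. Adventitial fibroblast markers were highest in AdvFB, at 6552 and 11928 CPM in the tdT-negative libraries. In every group of at least 50 cells the summed epithelial, endothelial, immune and mesothelial markers each stayed at or under 45.7 CPM. With 1 library per gate no test was possible; the 95% intervals, all exact, account for counting error alone and leave out the spread between pups or sorts. A gene was called higher or lower when it reached 10 CPM in the higher group and the ratio of CPM plus 1 was at least 2-fold. The deposited types were drawn from these same transcripts, so differences between types are given as a description.

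Itga8 and Npnt were genes of the MatFB types. Itga8 reached 1237 CPM (1201 to 1273) in MatFB-Type 1 and 1143 CPM (1124 to 1161) in MatFB-Type 2 of the GFP-low tdT-negative library, and 668 CPM (644 to 693) in MatFB-Im,Cuff. In MatFB-Im,Cuff of the GFP-high tdT-negative library it stood at 505 CPM (475 to 537). These 4 groups held the highest levels of the 14 groups of at least 50 cells, and each stood apart from its neighbour in the order.

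AdvFB cells of the GFP-low library came next, at 399 CPM (379 to 420). They were followed by MyoFB-Ter of the tdT-high library, at 30.6 CPM, and GFP-high tdT-negative AdvFB cells, at 24.0 CPM (20.7 to 27.6), whose intervals overlapped. In MyoFB-IMR and MyoFB-Int cells the level of Itga8 lay between 1.74 and 2.19 CPM in both GFP-high libraries, and neighbours in this range did not differ beyond their intervals. Among the 14 groups the lowest value was 1.43 CPM, from 3 UMIs, in DivFB-S/G2M of the GFP-high tdT-negative library. From the highest to the lowest of these groups Itga8 ranged 865-fold (interval 296 to 4195). The 15 DivFB cells of the GFP-low library, in groups under 50 cells, held 238 Itga8 and 470 Npnt UMIs. Of these cells 12 were named DivFB-G2M. Their 5 highest cells for each gene held 153 of 176 Itga8 and 335 of 379 Npnt UMIs.

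Npnt had almost the same order. Its levels were 2176 CPM (2151 to 2201) in MatFB-Type 2, 1816 CPM (1773 to 1859) in Type 1 and 1239 CPM (1206 to 1273) in MatFB-Im,Cuff of the GFP-low tdT-negative library. MatFB-Im,Cuff of the GFP-high tdT-negative library held 282 CPM (260 to 306), and AdvFB held 55.1 and 34.2 CPM in the same 2 libraries. The MyoFB types of both GFP-high libraries lay between 1.70 and 4.40 CPM, while the 66 MyoFB cells of the GFP-low library held 16.8 CPM. In GFP-low AdvFB cells 5 cells held 95 of the 203 Npnt UMIs (46.8%), against 12.8% for the 5 highest GFP-high tdT-negative AdvFB cells. Type 2 led Type 1 for the ligand and Type 1 led Type 2 for the receptor chain, both by less than 2-fold.

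**Figure D1:**
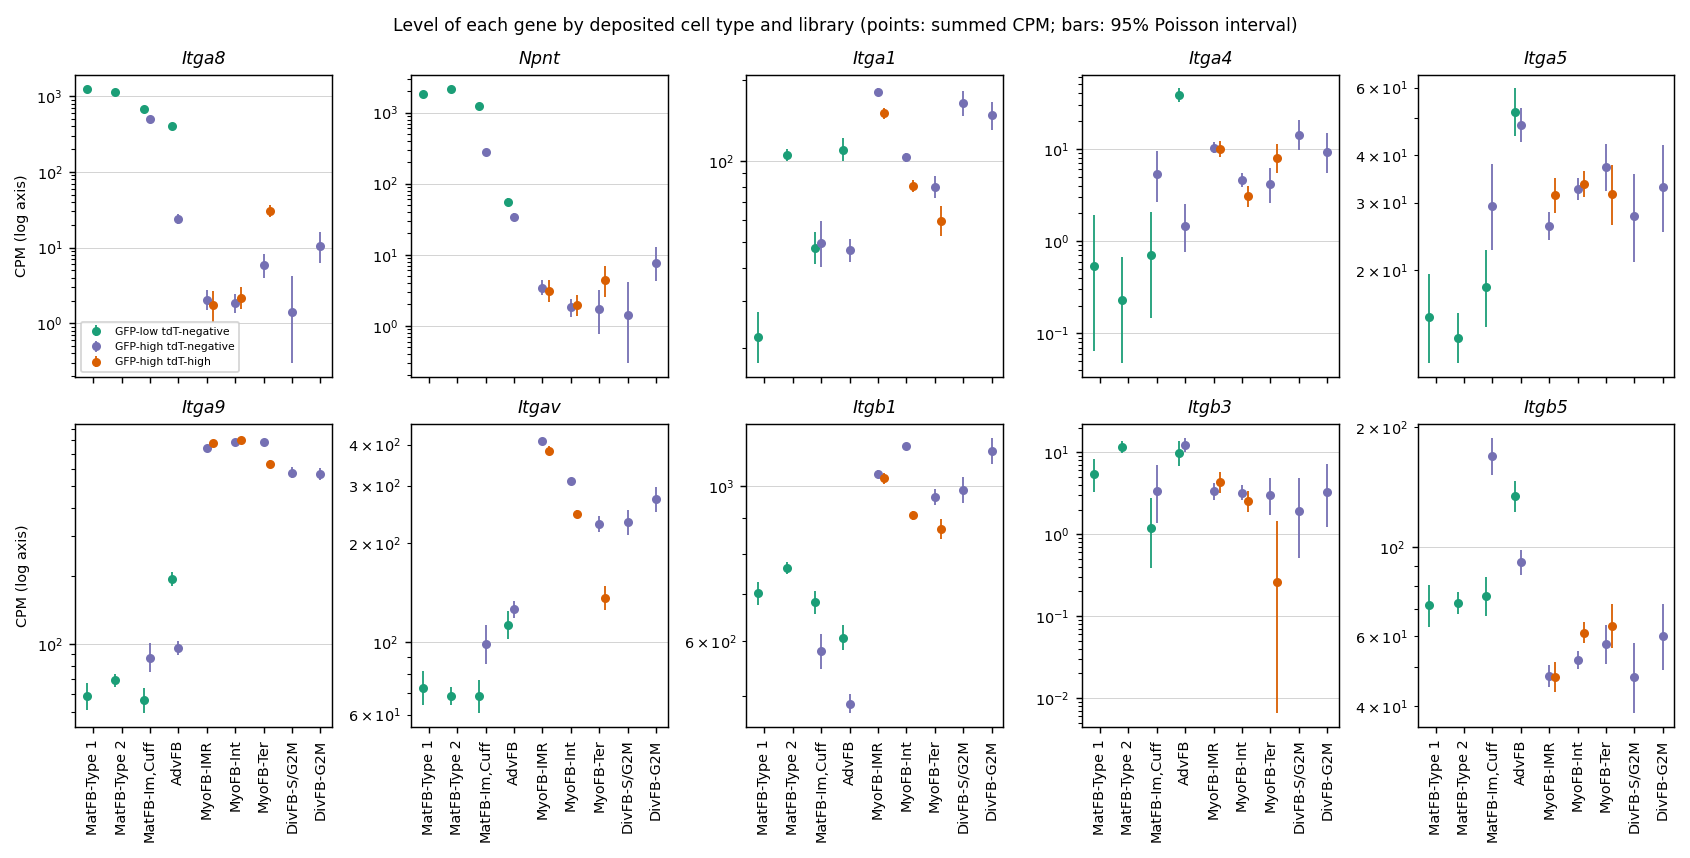
Level of each of the 10 genes in CPM (log axes, each panel with its own range) by deposited cell type; points are summed CPM of a type in a library with at least 50 cells, colours are the 3 libraries and bars are exact 95% Poisson intervals. Itga8 and Npnt are highest in the MatFB types, Itga9 and Itgav in the MyoFB types, and Itgb1 differs by 2.34-fold from its highest to its lowest group.

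The receptor chain and the ligand were detected in the same cells. Every one of the 199 MatFB-Type 1 and 651 MatFB-Type 2 cells of the GFP-low tdT-negative library held a UMI of both genes. After each cell was thinned to 5000 UMIs, to remove differences in depth, both were found in 97.0% and 97.5% of these cells. In MatFB-Im,Cuff the thinned share with both was 82.4% in the GFP-low and 45.5% in the GFP-high tdT-negative library. In the latter library 38.2% of MatFB-Im,Cuff cells had Itga8 without Npnt and 5.45% had Npnt without Itga8.

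**Figure D2:**
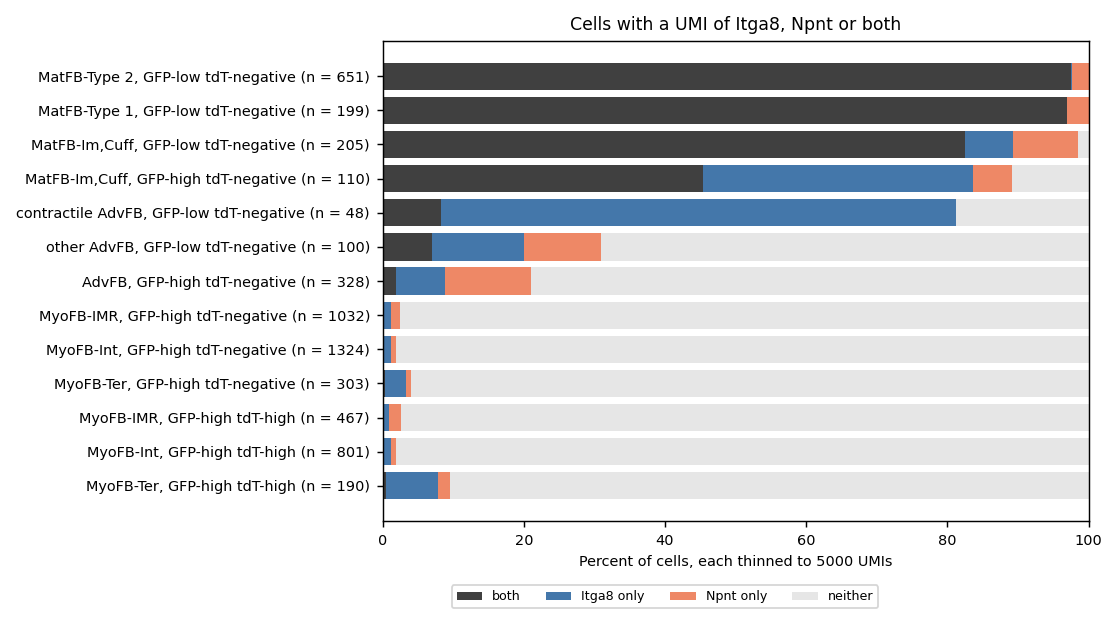
Percent of cells (x axis) with a UMI of both genes, of Itga8 only, of Npnt only or of neither after thinning each cell to 5000 UMIs, by deposited type and library (rows, with the number of cells). Nearly all MatFB-Type 1 and Type 2 cells hold both, contractile AdvFB cells hold mostly Itga8 only, and 97.6% of all GFP-high tdT-negative MyoFB cells hold neither.

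MyoFB cells served as the reference for these shares. Over all GFP-high tdT-negative MyoFB cells, 2.90% had a UMI of Itga8 and 3.87% one of Npnt (1.43% and 1.05% thinned), at a median of 19005 UMIs per cell. Droplet libraries can carry free RNA, and its part in these shares was not tested. In AdvFB of the same library, at a median of 24677.5 UMIs, 15.2% had a UMI of Itga8 and 39.6% one of Npnt (8.84% and 14.0% thinned). These were above the MyoFB shares.

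The ratio of Npnt UMIs to Itga8 UMIs, compared only between groups since capture differs between genes, separated cells with similar levels of Itga8. It was 1.47 (1.41 to 1.52) in MatFB-Type 1 and 1.90 (1.87 to 1.94) in MatFB-Type 2 of the GFP-low tdT-negative library, and 1.98 (1.81 to 2.17) in the 44 GFP-high tdT-negative Type 2 cells. MatFB-Im,Cuff held 1.85 (1.77 to 1.94) Npnt UMIs per Itga8 UMI in the GFP-low and 0.558 (0.504 to 0.618) in the GFP-high tdT-negative library. In AdvFB the ratio was 0.138 (0.119 to 0.160) in the GFP-low and 1.43 (1.18 to 1.72) in the GFP-high tdT-negative library. Without the cells rich in contractile transcripts that are described below, the AdvFB ratios were 0.609 (0.483 to 0.766) and 1.51 (1.25 to 1.83). In MatFB-Im,Cuff and AdvFB the proportion of ligand to receptor transcripts thus differed between gates under 1 type name, while in Type 2 the intervals overlapped.

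**Figure D3:**
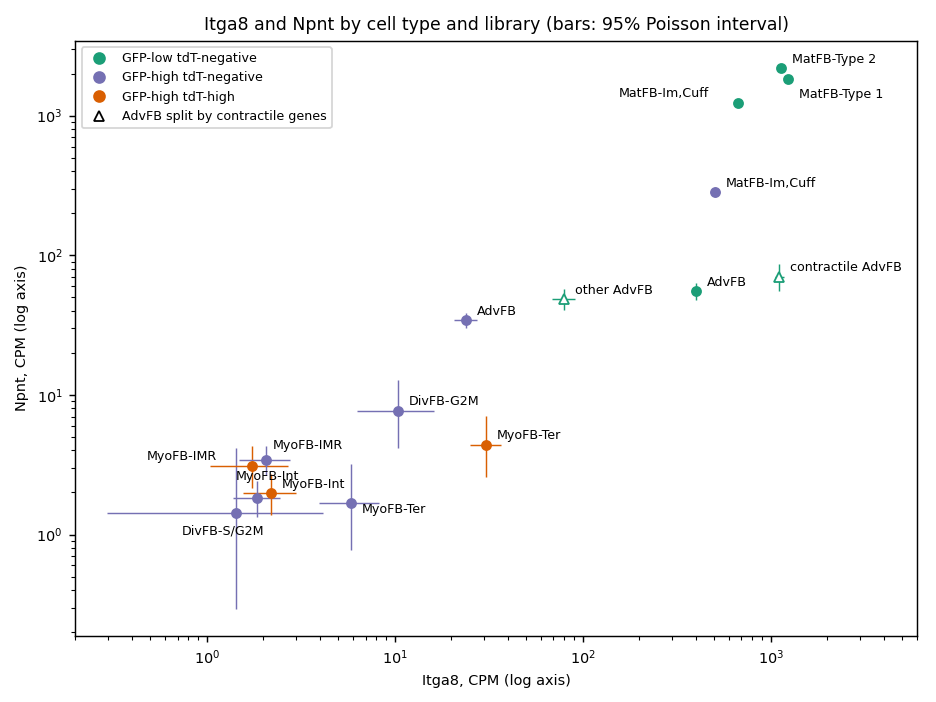
Npnt against Itga8 in CPM (both log axes) in each deposited type and library of at least 50 cells (circles, coloured by library) and in AdvFB cells split by contractile genes (triangles); bars are exact 95% Poisson intervals. Most groups rise together, while contractile AdvFB cells sit near the Itga8 level of MatFB-Type 2 cells. Their Npnt level is 70.1 CPM, against 48.4 CPM in the other AdvFB cells (ratio 1.45, 1.08 to 1.93).

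The genes whose log2(CPM + 1) followed each gene most closely over the 14 groups were listed, out of 5682 genes. For Itga8 they were Gria1, a glutamate receptor subunit (Pearson r = 0.977), the transglutaminase gene Tgm2 (0.973), the collagen gene Col18a1 (0.964), Limch1 (0.962) and Nrbp2 (0.959). Npnt held rank 11, with r = 0.948. For Npnt they were the TNF receptor family member Cd40 (0.993), the FGF receptor Fgfr3 (0.991), the peptidase genes Mme (0.990) and Enpep (0.990) and the amino acid transporter Slc36a2 (0.987), and Itga8 held rank 58. The groups share 3 libraries and their depth, so the coefficients describe these groups and carry no test.

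Between whole gates, the contrast in Itga8 and Npnt was large. Itga8 was at 910 CPM in GFP-low tdT-negative, 34.4 CPM in GFP-high tdT-negative cells and 7.71 CPM in those of the GFP-high tdT-high gate. Npnt was at 1550, 42.3 and 8.03 CPM in the same order. Both were therefore lower with each gate, and no 2 intervals overlapped. In GFP-high over GFP-low tdT-negative cells Itga8 was 26.4-fold lower (25.3 to 27.6) and Npnt 36.6-fold lower (35.2 to 38.0), while Itga9 was 6.04-fold higher (5.81 to 6.27) and Itgav 3.62-fold higher (3.47 to 3.79). These were 4 of the 8 genes that reached 10 CPM, against 17.0% of all genes called in this comparison. Their median log2 ratio was 0.47, and that of all genes 0.16. In GFP-high tdT-high over GFP-high tdT-negative cells, 2 of 8 were called against 3.35% of all genes, Itga8 (4.47-fold lower, 3.93 to 5.09) and Npnt (5.28-fold lower, 4.66 to 5.99).

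The gates differ in their mixture of types, and in both tdT-negative libraries most UMIs of the pair came from MatFB cells. MatFB cells supplied 92.6% of the Itga8 UMIs of the GFP-low tdT-negative library and 85.5% of those of the GFP-high tdT-negative library, where they were 5.08% of the cells. They supplied 98.3% and 85.3% of the Npnt UMIs of these libraries. In the GFP-high tdT-high library 7 MatFB cells supplied 190 of the 277 Npnt UMIs (68.6%) and 83 of the 266 Itga8 UMIs (31.2%), and MyoFB cells supplied 66.5% of the Itga8 UMIs. The Npnt level of the tdT-high library thus rests on few cells, while the GFP-high tdT-negative library drew 2482 of its 2909 Npnt UMIs from MatFB cells.

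**Figure D4:**
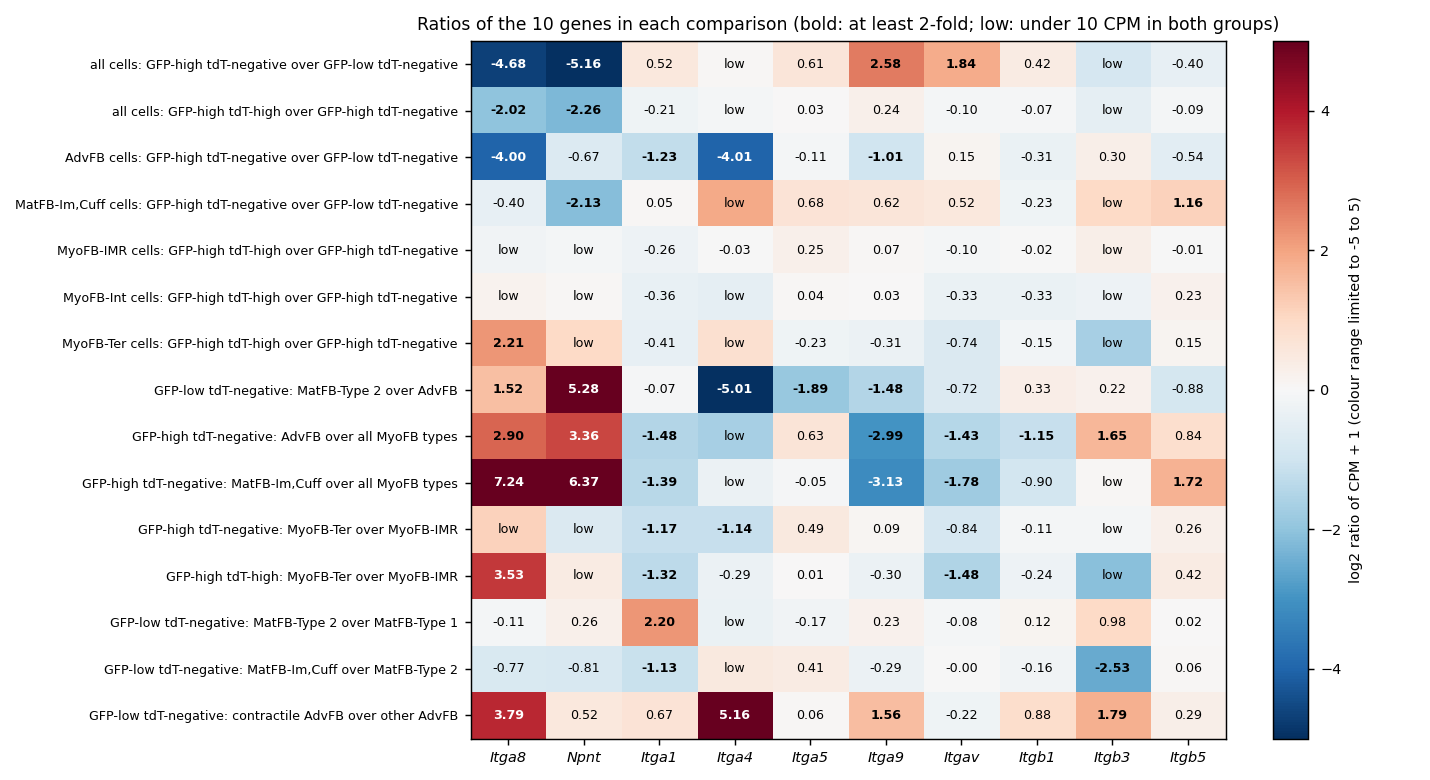
Ratio of CPM plus 1 on the log2 scale for each of the 10 genes (columns) in each comparison (rows, numerator over denominator); bold values are at least 2-fold, "low" marks genes under 10 CPM in both groups, and the colour range is limited to -5 to 5. The largest values are those of Itga8 and Npnt in MatFB-Im,Cuff over MyoFB cells, 7.24 and 6.37. Between the GFP-high gates none of the 10 is called in MyoFB-IMR or MyoFB-Int, against 0.424% and 1.83% of all genes.

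Within AdvFB cells, which had the highest adventitial markers, Itga8 and Itga4 separated the gates while Npnt did not pass 2-fold. Itga8 stood at 399 CPM in GFP-low AdvFB cells and at 24.0 CPM in those of the GFP-high tdT-negative gate, a 16.6-fold lower level (14.3 to 19.4). Itga4, the alpha chain that pairs with β1 to bind VCAM1 and fibronectin, stood at 38.6 CPM (32.5 to 45.5) and 1.46 CPM, 26.4-fold lower (14.7 to 52.3). Itga1 was 2.38-fold lower (2.06 to 2.74) and Itga9 2.03-fold lower (1.83 to 2.25) in the GFP-high cells. All 10 genes reached 10 CPM here and 4 were called, against 7.99% of all genes, with a median log2 ratio of -0.61 against 0.038 over all genes.

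The AdvFB cells of the GFP-low library were not uniform. The summed level of 8 smooth muscle markers was 3620 CPM in them and 105 CPM in GFP-high tdT-negative AdvFB cells. A cut at 1000 CPM for the sum of Acta2, Tagln, Myh11 and Actg2, set after the levels had been seen, placed 48 of 148 GFP-low cells above it and 3 of 328 GFP-high tdT-negative cells. Between 500 and 2000 CPM lay 8 GFP-low and 6 GFP-high cells, so few cells were near the cut. The 48 contractile cells had smooth muscle markers at 11374 CPM, adventitial markers at 1653 CPM and pericyte markers at 1076 CPM, and the 100 others had 133, 8755 and 319 CPM, in the same order. Acta2, Tagln, Myh11 and Actg2 are themselves among the 8 smooth muscle markers, so the difference in that sum is set in part by the cut. Myofibroblast markers, which share Acta2 and Tagln with the smooth muscle list, summed to 8734 and 1304 CPM. Alveolar fibroblast markers summed to 1517 and 2963 CPM.

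The contractile AdvFB cells held Itga8 at 1109 CPM (1049 to 1172), close to the level of MatFB-Type 2, with a UMI in 97.9% of cells, while the other GFP-low AdvFB cells held 79.5 CPM (69.0 to 91.3). Npnt differed far less, at 70.1 and 48.4 CPM, so that after thinning 72.9% of contractile cells had Itga8 without Npnt and 8.33% had both. Itga4 was found at 119 CPM (99.9 to 141) in the contractile and 2.36 CPM (0.867 to 5.14) in the other cells. Its UMIs were uneven: 35 of all 148 GFP-low AdvFB cells had one, and 5 cells held 64 of the 142 UMIs (45.1%). For Itga8, 96 of the 148 cells had a UMI and the 5 highest held 32.4% of them. With a 13.9-fold difference for Itga8 (12.0 to 16.3), 50.4-fold for Itga4 (22.6 to 140), 2.96-fold for Itga9 and 3.93-fold for Itgb3, 4 of 10 genes were called, all higher in contractile cells, against 20.4% of all genes.

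AdvFB cells supplied 142 of the 163 Itga4 UMIs of the GFP-low tdT-negative library (87.1%), and 136 of these came from the contractile fraction. In that library Itga4 stood at 0.537 CPM (2 UMIs) in MatFB-Type 1, 0.229 CPM (3 UMIs) in Type 2 and 0.711 CPM (3 UMIs) in MatFB-Im,Cuff. Without the contractile cells of both libraries, Itga8 was 22.7 CPM in GFP-high and 79.5 CPM in GFP-low AdvFB cells, a ratio of 0.286 (0.233 to 0.350). Itga4 was then under the minimum level, the Itga9 ratio was 0.777 and no longer called, and Itgb3 was 2.42-fold higher (1.36 to 4.71). Itga1 stayed lower in GFP-high cells, at a ratio of 0.478. The Itga4 and Itga9 calls in AdvFB thus rested on 48 cells of 1 library.

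The same fraction entered the comparison of types within the GFP-low tdT-negative library. MatFB-Type 2 over AdvFB cells gave 5 of 10 genes called, against 25.9% of all genes. Npnt was 39.5-fold higher (34.4 to 45.5) and Itga8 2.86-fold higher (2.71 to 3.02), while Itga4 was 169-fold lower (56.5 to 827), Itga5 3.91-fold lower and Itga9 2.82-fold lower. Without the contractile cells the Itga8 ratio was 14.4 and the Npnt ratio 44.9. Itga9 was no longer called, Itga4 (10.3-fold lower) was under the minimum level, and Itgb3 was called, 2.27-fold higher.

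In MatFB-Im,Cuff the gates differed in the ligand more than in the receptor chain. Npnt was at 1239 CPM in the GFP-low cells and at 282 CPM in the GFP-high tdT-negative cells, 4.39-fold lower (4.03 to 4.79), and its share of cells with a UMI was 96.1% and 76.4%. Itga8 was at 668 and 505 CPM, a ratio of 0.756 (0.704 to 0.812). Itgb5, a beta chain that pairs with αv, went the other way, at 75.4 CPM in the GFP-low and 169 CPM (152 to 188) in the GFP-high cells, 2.25-fold higher (1.93 to 2.63). These were 2 of 8 genes called, against 13.5% of all genes. The alveolar fibroblast markers summed to 10966 CPM in the GFP-low and 4859 CPM in the GFP-high cells of this type. Adventitial markers summed to 1583 and 2442 CPM, and myofibroblast markers to 1007 and 2056 CPM. Of 8 alveolar markers 7 were lower and none higher, against 13.5% of all genes called. Of 7 adventitial markers 5 were higher and 1 lower, and of 8 myofibroblast markers 4 were higher and 1 lower. The part of these markers in the Npnt difference was not tested.

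MyoFB cells of the GFP-high libraries held little Itga8, and MyoFB-Ter held the most. Itga8 was at 30.6 CPM (25.3 to 36.6) in MyoFB-Ter of the GFP-high tdT-high library and 5.84 CPM (3.97 to 8.29) in MyoFB-Ter of the GFP-high tdT-negative library, 5.23-fold higher (3.50 to 8.04). It was the 1 gene called of 7, against 6.83% of all genes. A UMI of Itga8 was found in 19.5% of these tdT-high cells at a median of 19853 UMIs (7.89% thinned), and in 2.14% of MyoFB-IMR cells of the same library at a median of 23762 UMIs (0.857% thinned). Within the tdT-high library MyoFB-Ter was 17.6-fold above MyoFB-IMR (10.8 to 30.3).

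The signal was uneven among cells: of 118 UMIs in 37 cells, the 5 highest cells held 46 (39.0%). Pericyte markers summed to 790 CPM in MyoFB-Ter of the tdT-high and 346 CPM in that of the tdT-negative library, against 323 and 321 CPM in MyoFB-IMR. Alveolar fibroblast markers summed to 736 and 357 CPM and adventitial markers to 642 and 340 CPM in MyoFB-Ter, in the same order. Between MyoFB-Ter of these libraries all 3 measured alveolar fibroblast markers were called higher in the tdT-high cells, against 6.83% of all genes. Slc7a10, Ces1d and Inmt had no UMI in the tdT-high cells. Of 7 pericyte markers 3 were higher and none lower. Smooth muscle markers summed to 5024 and 5108.5 CPM, with 3 of 8 higher and none lower. Of 4 adventitial markers 2 were higher and 2 lower, and of 7 myofibroblast markers 2 were higher and 2 lower. Of MyoFB-Ter cells, 144 in the tdT-high and 52 in the tdT-negative library had no Pdgfra UMI, while 46 and 251 had one. The gates thus differed in this mixture. MyoFB-Ter cells without a Pdgfra UMI held Itga8 at 34.5 CPM (28.0 to 42.0) and those with one at 19.6 CPM (12.0 to 30.3) in the tdT-high library. In the tdT-negative library the values were 13.4 and 4.45 CPM. The part of pericyte, alveolar fibroblast, adventitial or smooth muscle transcripts in the Itga8 level was not tested. Npnt was under 10 CPM in both, at 4.40 and 1.70 CPM in MyoFB-Ter, and the Npnt to Itga8 ratio was 0.144 (0.0812 to 0.241) in the tdT-high cells.

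In the GFP-low tdT-negative library, whose 66 MyoFB cells form small groups, 23 MyoFB-Ter cells held Itga8 at 121 CPM (92.0 to 157), with a UMI in 16 cells. Of these 23 cells, 22 had no Pdgfra UMI. MyoFB-Int held 44.7 CPM, from 23 UMIs in 2 of 22 cells, and MyoFB-IMR 8.03 CPM. This library is also the richest in Itga8, and the part of free RNA was not tested.

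The other alpha chains divided the types differently. Itga9, the tenascin-C and VCAM1 receptor chain, was highest in the MyoFB types. It lay between 632 and 807 CPM in the MyoFB types of both GFP-high libraries and at 570 and 576 CPM in the 2 DivFB types measured. AdvFB held 194 CPM (180 to 209) in the GFP-low and 95.6 CPM (89.1 to 103) in the other tdT-negative library. The MatFB groups held 56.2 to 86.9 CPM. From its highest to its lowest group Itga9 ranged 14.4-fold. MyoFB cells had Itga9 in either gate: the 66 in the GFP-low library held 473 CPM.

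Itgav, the αv chain of RGD receptors that also release latent TGF-β, graded within the MyoFB types. In the GFP-high tdT-negative library it was 410 CPM (402 to 419) in MyoFB-IMR, 310 in MyoFB-Int and 228 in MyoFB-Ter. In the GFP-high tdT-high library the levels were 384, 246 and 136 CPM. Both libraries thus gave the same order, and the tdT-high value was the lower in each type. AdvFB held 113 and 126 CPM and the MatFB groups 68.3 to 98.5 CPM.

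Itga5, the α5 chain of the fibronectin receptor, had the narrowest range among the alpha chains, 3.91-fold. It was highest in AdvFB, at 51.9 and 47.9 CPM in the GFP-low and GFP-high tdT-negative libraries, between 26.1 and 37.1 CPM in MyoFB types, and lowest in MatFB-Type 2 at 13.3 CPM (11.4 to 15.4). Itga4 was low in MyoFB types, at 10.3 and 10.0 CPM in MyoFB-IMR and 3.07 to 8.03 CPM in MyoFB-Int and MyoFB-Ter, and 14.3 CPM in DivFB-S/G2M.

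Itga1, the collagen receptor chain, was highest in MyoFB-IMR, at 181 CPM (175 to 187) in the tdT-negative and 151 CPM (144 to 158) in the tdT-high GFP-high library. It was 103 and 80.5 CPM in MyoFB-Int, and 80.0 and 59.8 CPM in MyoFB-Ter. Like Itgav it was lower from IMR to Ter in both libraries.

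Itga1 also separated the MatFB types. It was at 105 CPM (99.6 to 111) in Type 2, 22.0 CPM (17.5 to 27.4) in Type 1 and 47.4 CPM in MatFB-Im,Cuff of the GFP-low library. Type 2 was 4.77-fold above Type 1 (3.82 to 6.04), the 1 gene called of 9 against 4.01% of all genes. MatFB-Im,Cuff over Type 2 gave 2 of 9 against 6.14% of all genes, Itga1 (2.22-fold lower) and Itgb3 (9.78-fold lower, 4.10 to 30.6, from 1.19 CPM against 11.6 CPM). Itgb3, at 11.6 CPM in Type 2 and 5.37 CPM in Type 1, had a CPM ratio of 2.16 but a log2 ratio of CPM plus 1 of 0.98, just under the call, and was called under other scalings. These comparisons were chosen after the levels had been seen.

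Among the beta chains, Itgb1, the partner of α1, α4, α5, α8, α9 and αv, was present throughout, with a UMI in at least 98.6% of the cells of every group. Its levels ran from 488 CPM in AdvFB to 1140 CPM in MyoFB-Int, both of the GFP-high tdT-negative library, a 2.34-fold range. MatFB groups held 580 to 763 CPM. Itgb5 was highest in MatFB-Im,Cuff of the GFP-high tdT-negative library and in AdvFB of the GFP-low library (134 CPM), and 47.2 to 63.4 CPM in MyoFB types. Itgb3, which pairs with αv, was low in every type, with its highest level in AdvFB of the GFP-high tdT-negative library, 12.3 CPM (10.0 to 14.9). The contractile AdvFB cells held 20.1 CPM, from 23 UMIs. MatFB-Type 2 held 11.6 CPM, and MyoFB-Ter of the tdT-high library a single UMI.

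Chain pairs in single cells followed these levels. After thinning, Itga8 and Itgb1 were found together in 95.2% of MatFB-Type 2 and 91.0% of Type 1 cells of the GFP-low library, in 79.2% of contractile AdvFB cells and in 1.4% of GFP-high tdT-negative MyoFB cells. Itga9 and Itgb1 were found together in 91.6% of MyoFB cells of the GFP-high tdT-negative and 90.3% of the GFP-high tdT-high library, and in 25.7% of MatFB-Type 2 cells. Itgav with Itgb1 was found in 71.4% and 65.7% of the same MyoFB cells and 29.5% of MatFB-Type 2 cells. A cell with both transcripts need not carry the paired receptor. Contractile AdvFB cells held Itga8 and Itga9 together in 60.4% of cells.

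Direct comparison of types in the GFP-high tdT-negative library gave the same division. AdvFB over all MyoFB cells gave 7 of 9 genes called, against 23.0% of all genes: Itga8 (10.3-fold), Npnt (14.1-fold) and Itgb3 (3.78-fold) were higher, and Itga9 (8.04-fold), Itga1 (2.83-fold), Itgav (2.71-fold) and Itgb1 (2.22-fold) lower. The median log2 ratio of all genes was -0.27 here, and under TMM scaling, which moved it to -0.055, Itgb1 was at -0.93 on the log2 scale and no longer called. MatFB-Im,Cuff over all MyoFB cells gave 6 of 8, against 21.1% of all genes. Itga8 was 216-fold higher (179 to 263), Npnt 116-fold (95.6 to 142) and Itgb5 3.34-fold higher, while Itga9 was 8.84-fold, Itgav 3.46-fold and Itga1 2.66-fold lower.

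Between the GFP-high gates few genes of any kind were called in MyoFB-IMR and MyoFB-Int cells. None of 7 members was called in MyoFB-IMR, against 0.424% of all genes, and none of 6 in MyoFB-Int, against 1.83%. Both counts were near the share over all genes. In tdT-high MyoFB-Int cells Itgb1 (ratio 0.797, 0.782 to 0.812), Itgav (0.793) and Itga1 (0.779) were lower with intervals clear of 1. Itgb5 (1.17) and Itga9 (1.02) were higher, also with intervals clear of 1. Within a library, MyoFB-Ter over MyoFB-IMR gave 2 of 7 in the tdT-negative cells, against 7.62% of all genes, Itga1 (2.26-fold lower) and Itga4 (2.49-fold lower). It gave 3 of 8 in the tdT-high cells, against 14.2%, Itga8 (above), Itga1 (2.52-fold lower) and Itgav (2.81-fold lower).

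The remaining integrin chains were minor in these cells. Of 17 other chains in the matrix, 10 reached 10 CPM in a group and only Itgb8, which pairs with αv, reached 50 CPM, with 111 CPM in GFP-high and 39.1 CPM in GFP-low MatFB-Im,Cuff cells, both tdT-negative. Of these, 2 were higher and 1 lower of 3 measured in GFP-high over GFP-low tdT-negative cells, against 17.0% of all genes called: Itgb6 (4.56-fold), Itgb8 (2.71-fold) and Itga2 (2.54-fold lower), all as ratios of CPM plus 1. In contractile over other AdvFB cells 3 of 8 were higher, among them Itga3 at 20.1 against 1.58 CPM. Of all genes 20.4% were called, a share that counts both directions. The median log2 ratio of these 8 chains was -0.48.

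The basement membrane partners of Npnt were measured too. Frem1 and Fras1 encode parts of the Fraser complex at the basement membrane, and were the 2 of 5 listed genes that reached 10 CPM. In GFP-high over GFP-low tdT-negative cells 1 was lower, against 17.0% of all genes called, Frem1 (6.21-fold, from 400 to 63.5 CPM). In the GFP-low library both were higher in MatFB-Type 2 than in AdvFB cells, contractile ones included, against 25.9% of all genes called. Frem1 was at 589 against 17.9 CPM, and Fras1 was 4.16-fold higher. In MyoFB-Ter of the tdT-high library both were lower than in that of the tdT-negative library, against 6.83% of all genes called. Their median log2 ratio was -1.45 there, and that of all genes -0.10.

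The ligands of these receptors were also unevenly held. Of 10 measured RGD ligands, 4 were higher and 2 lower in GFP-high over GFP-low tdT-negative cells, against 17.0% of all genes called, with a median log2 ratio of 0.21 against 0.16 over all genes. Fn1 (fibronectin) was 8.18-fold lower, from 2984 to 364 CPM, and Fbln5, an elastic fibre protein, 5.30-fold lower. Ibsp was 10.8-fold, Tnc (tenascin-C) 3.27-fold, Thbs1 2.27-fold and Tgfb3 2.04-fold higher.

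Of 5 measured α4 and α9 ligands 1 was higher and 2 lower in the same comparison, against 17.0% of all genes called, with a median log2 ratio of -0.61. Vcam1 stood at 155 CPM in all GFP-low cells and at 30.0 CPM in all GFP-high tdT-negative cells. In AdvFB of the latter gate it was at 174 CPM and in all MyoFB cells at 0.684 CPM. The 7 measured α1 ligands gave no call between these gates. In AdvFB over all MyoFB cells 3 of 7 were higher, against 23.0% of all genes called, with Col1a1 at 18483 against 767 CPM.

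Adaptors that link integrins to actin gave 3 higher and 3 lower of 18 measured between the tdT-negative gates, against 17.0% of all genes called, with a median log2 ratio of 0.15, close to that of all genes. The tensin genes were among the lower ones: the GFP-low cells held Tns1 at 1280 CPM and Tns3 at 758 CPM, the GFP-high cells at 187 and 124 CPM. Talin 2 (Tln2) was 2.16-fold higher. Genes of integrin inactivation and traffic gave no call among 6 measured.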

How the data were processed

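Libraries were made with 10x Genomics 3' chemistry, per the labels' protocols, and processed, per the submitters' processing notes, with Cell Ranger 7.0.0 and mm10; the sources used here do not say whether intronic reads were counted. The authors deposited UMI counts per gene and cell, and a table with each cell's type, gate, UMI total and percent of mitochondrial UMIs; how types were called and cells filtered is not given there, and its cluster column repeats the gate. All 6142 deposited cells were kept, doublets were not removed, and 4 barcodes occurred in 2 or more libraries. The median percent of mitochondrial UMIs, as deposited by the authors, was 2.65% to 3.46% per library. A further sorted population (tdTomato-positive, GFP-negative) was not used here, and pooling of pups within a library is not stated in these sources.

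UMIs were summed per type and library and scaled to CPM. The limit for a gene with no UMI, 3 counts of the library total, came to 0.113 CPM for GFP-low tdT-negative, 0.0437 CPM for GFP-high tdT-negative and 0.0869 CPM for GFP-high tdT-high cells. Intervals are exact Poisson for levels, conditional binomial for ratios and Clopper-Pearson for shares. A type was compared between gates only with 100 cells in both. The pseudocount was 1 CPM. Itga8 shares its strand and part of its span with Gm37701, and Itga1 with Pelo and Gm49395, in GENCODE on GRCm38. The members and gene lists were chosen with earlier results of these data known; all members are named, with the 5 closest genes to Itga8 and to Npnt among genes of at least 50 CPM in a group and the listed genes with the largest ratios. On simulated data for GFP-high over GFP-low tdT-negative cells, 101 of 101 genes set 4-fold apart were called, 0 of 99 set 1.5-fold apart and 0 of 9399 unchanged. The simulated counts were Poisson draws with no spread between cells, pups or libraries. They check the calculation of the calls and say nothing on that spread. Python 3.11.15, numpy 2.4.6, scipy 1.17.1 and pandas 2.3.3 were used, with edgeR 4.0.16 (TMM) and DESeq2 1.42.0 (size factors) only as alternative scalings.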

Additional observations from a re-analysis of the deposited data

Results flagged for a closer look

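Of 33 pairs of ratios of the 10 genes under the same contrast in different types or libraries, 5 pointed in opposite directions with intervals apart from 1; the difference itself was not tested, since each gate has 1 library. In GFP-high over GFP-low tdT-negative cells the Itga9 ratio was 0.492 in AdvFB and 1.55 in MatFB-Im,Cuff, and the Itgb5 ratio 0.683 in AdvFB and 2.25 in MatFB-Im,Cuff. In GFP-high tdT-high over GFP-high tdT-negative cells the Itga9 ratio was 1.05 in MyoFB-IMR and 1.02 in MyoFB-Int and 0.805 in MyoFB-Ter. In MyoFB-Ter over MyoFB-IMR the Itga9 ratio was 1.06 in the GFP-high tdT-negative and 0.812 in the GFP-high tdT-high library. Without the contractile cells the Itga9 ratio in AdvFB was 0.777.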

How the results depend on the processing

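Counts of called genes were recomputed under other scalings, pseudocounts, minimum levels, cell filters and thinning, including for the 3 comparisons chosen after the data were seen. Of 140 such counts 125 stayed within 1.5 times the main count and 15 moved, and of 409 called ratios none changed direction and 12 fell under 2-fold. With a minimum of 50 CPM, the counts were 0 in place of 2 between the GFP-high gates, 0 in place of 1 in MyoFB-Ter between these gates, 4 in place of 7 in AdvFB over MyoFB, 1 in place of 2 in MyoFB-Ter over IMR of the tdT-negative library and 1 in place of 2 in MatFB-Im,Cuff over Type 2. With no minimum they went from 2 to 4 in MatFB-Im,Cuff between gates and from 1 to 3 in MyoFB-Ter between gates. These follow from the number of genes measured. With cells thinned, the count was 2 in place of 1 in MyoFB-Ter between gates and 1 in place of 2 in MatFB-Im,Cuff over Type 2. The count in MyoFB-Ter over IMR of the tdT-negative library was 1 in place of 2 with the mean of each cell's CPM and with a pseudocount of 5, where Itga4 was lost. In MatFB-Type 2 over Type 1 it was 2 in place of 1, with Itgb3 added, under TMM, median-of-ratios size factors, the mean of each cell's CPM, and totals without mitochondrial, ribosomal protein and haemoglobin genes. In each case the cause was not tested beyond what is stated. The Itga9 call in AdvFB was lost under TMM, size factors, a pseudocount of 5 and thinning, so it is at the edge of 2-fold. Scaling moved the median log2 ratio of all genes in AdvFB over MyoFB from -0.27 to -0.055 (TMM) and -0.037 (size factors).

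No paired analysis was possible because each gate has 1 library. Depth limits Itga4, Itgb3, Itga8 and Npnt, whose lowest levels rest on 3 or fewer UMIs. The Itga8 and Npnt levels of MyoFB cells are low, and the part of free RNA in them was not tested. The precision given is that of counting, and pups, sorts and libraries cannot be told apart from the gates.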
